A study of Mus musculus with 2 samples.

Results

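Dendritic cells of Lewis lung carcinoma (LLC) tumors, chosen on RNA of Flt3, Cd209a, Kmo and H2-Oa, are described here as a small group among all leukocytes of the tumor. They were chosen by their own RNA counts, as cells with at least 3 unique molecular identifiers (UMIs, counted molecules) of Flt3, Cd209a, Kmo and H2-Oa together. Cells with any UMI of Xcr1 or Clec9a were left out, as were cells with 3 or more UMIs of Ccr7 and Fscn1 or of Siglech, with 10 or more of C1qa, C1qb and C1qc, or with more than 1 of Cd3d, Cd3e and Cd3g. Cells with more than 10% mitochondrial UMIs were also left out. The rule found 151 cells among 5167, 69 in the library labelled wt and 82 in the library labelled cko. Of the cells kept after the mitochondrial limit they were 69 of 2445 in the library labelled wt (2.82%, exact 95% Clopper-Pearson interval 2.20 to 3.56) and 82 of 2704 in the library labelled cko (3.03%, 2.42 to 3.75). The log2 ratio of the shares, cko over wt, was 0.10, with an interval of −0.38 to 0.59 that includes equal shares.

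The study asked how loss of the microRNA miR-21 in myeloid cells alters the leukocytes of tumors. LLC is a mouse lung carcinoma line, and its cells were placed under the skin of mice (strain given as C57/BL6) at 8 weeks of age, with tumors taken on day 14 and mice given as 10 weeks old. Both groups carried the floxed allele (mir-21flox/flox), and the deleted group also carried LysMCre, in which the promoter of Lyz2 (lysozyme M) drives Cre, so deletion is directed at macrophages, monocytes and granulocytes and is known to reach dendritic cells only in part. CD45+ cells of 3 mice were pooled into 1 library per genotype, so there is no replicate, no test and no p-value, and the intervals given reflect the counting of molecules alone, with variation among animals not measured.

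Titles and source descriptions of the libraries name the genotypes in opposite ways, while the sort is described once by CD45 alone and once as a macrophage gate (CD11b+, MHCII+, F4/80+), so groups are called by their titles throughout. The T cell gate defined below held 152 of 2445 cells kept in the library labelled wt and 192 of 2704 in the library labelled cko. The part of the sort in the share and kind of dendritic cells seen was not tested. Mature miR-21 is not measured in poly(A) 3′ libraries, and Vmp1, whose gene spans the miR-21 locus, had 72 and 70 UMIs in the members of the libraries labelled wt and cko (log2 ratio −0.13, −0.62 to 0.37). The libraries held 24492486 and 27163485 UMIs in all. Members had a median of 9884 UMIs in the library labelled wt and 8904.5 in the library labelled cko, and 731313 and 776522 UMIs in sum. The libraries shared 5 cell barcodes, and 1 of these cells was a member.

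Conventional dendritic cells take up antigen in tissue, load its peptides on MHC molecules and show them to T cells. They depend on the receptor FLT3 and the transcription factor ZBTB46, and split into a cDC1 branch, with XCR1, CLEC9A, IRF8 and BATF3, which presents antigen mainly to CD8 T cells, and a cDC2 branch, with SIRPA, CD11b and in mouse skin and tumor often CD209a, MGL2 (CD301b) and CLEC10A (CD301a), which presents mainly to CD4 T cells. The non-classical MHC II protein H2-DM edits the peptides loaded on class II, and the related H2-O limits H2-DM. KMO is an enzyme of the kynurenine pathway of tryptophan breakdown.

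H2-DMb2 and H2-Ob stood, after Ffar2, among the genes with the highest folds over other cells beyond the rule, so promoter stretches of 4 class II genes are shown, each 100 bases of the gene's own strand, 5′ to 3′, from RefSeq (GRCm38.p6). Capitals mark the Y box core (GATTGG) and 1 form of the X2 box core (TGATGC), parts of the module through which class II genes are switched on by CIITA. Other forms of the X2 box were not searched, so a stretch without TGATGC may still hold another form. The letters tgacgtca in the H2-Aa stretch, for example, were not among those searched. The stretches lie at chr17:34092275-34092374 (H2-Oa, plus strand), chr17:34238787-34238886 (H2-Ob, plus strand), chr17:34145098-34145197 (H2-DMb2, plus strand) and chr17:34287833-34287932 (H2-Aa, minus strand).
H2-Oa: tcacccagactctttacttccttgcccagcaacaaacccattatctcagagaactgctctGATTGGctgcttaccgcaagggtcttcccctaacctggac
H2-Ob: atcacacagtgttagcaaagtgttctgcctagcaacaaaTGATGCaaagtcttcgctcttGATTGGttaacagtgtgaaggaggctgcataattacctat
H2-DMb2: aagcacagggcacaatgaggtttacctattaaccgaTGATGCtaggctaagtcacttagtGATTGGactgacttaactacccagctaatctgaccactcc
H2-Aa: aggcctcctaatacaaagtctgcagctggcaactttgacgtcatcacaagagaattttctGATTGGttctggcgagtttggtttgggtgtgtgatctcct
The Y box core stood on either strand in the promoter (250 bases before to 50 after the start) of 8 of the 11 class II list genes that have an entry, against 18.2% of all 27025 genes in the table (16.1% of its 32851 promoters). The X2 form TGATGC was found in 5 of those 11 genes, against 12.5% of all genes (10.9% of promoters). The same 5 genes had both in 1 promoter, and 1.72% of all promoters hold both. The motifs do not overlap each other in the stretches shown, and a match is a description of letters only.

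The label under which these cells were proposed, CD209a and MGL2 type, was borne out by few of them. Cd209a, a C-type lectin of the DC-SIGN family, had a UMI in 7 of 69 members of the library labelled wt and in 7 of 82 of the library labelled cko, 21 UMIs in all, although these were 56.8% of all 37 Cd209a UMIs in the data. Mgl2, a lectin that binds galactose-type sugars and took no part in the rule, had a UMI in 25 members of each library. H2-Oa (134 members), Kmo (117) and Flt3 (83) brought most of them in. The most frequent combination was Flt3, Kmo and H2-Oa without Cd209a (49 members), followed by Kmo and H2-Oa alone (43), and 62 members had neither Flt3 nor Cd209a (33 labelled wt, 29 labelled cko). They are therefore called members below, and not by Cd209a, Mgl2 or any 1 of the rule genes. Their status as dendritic cells rested on genes the rule did not use, given below.

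Shares of cells with a UMI depend on depth and on free RNA in the droplets, so each was also taken after thinning every cell to 3000 UMIs and set beside the T cell gate (3 or more UMIs of Cd3d, Cd3e and Cd3g; median depth 5804 and 7000.5 UMIs). Flt3 was seen in 46.4% and 62.2% of members labelled wt and cko (18.8% and 32.9% thinned), against 0% and 0.521% of T cells. For Kmo the shares were 75.4% and 79.3% (44.9% and 43.9% thinned), against 3.95% and 2.60% of T cells. H2-Oa was found in 95.7% and 82.9% of members (65.2% and 53.7% thinned), against 9.21% and 13.5% of T cells. These 3 genes were used to choose the members, and the shares describe them. Mgl2, outside the rule, was seen in 36.2% and 30.5% of members (30.4% and 25.6% thinned) and in 0% and 1.56% of T cells, where the 0 of 152, read with a limit of 3 counts, allows a share of up to 1.97% (exact 95% upper bound 2.40%).

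The rule's limit of 3 UMIs lay in a continuum. Just inside it stood 21 cells with exactly 3 UMIs (9 labelled wt, 12 labelled cko), and just outside it 89 cells with 2 UMIs that met every other limit (53 and 36). The level of H2-DMb2, in CPM (UMIs per 1000000 UMIs of the summed cells), was 606 and 648 in members with over 3 UMIs, 189 and 298 just inside and 62.6 and 134 just outside. Lyz2 ran the other way, with 4085 and 1250 CPM in members over 3 UMIs, 13031 and 3400 CPM just inside and 17614 and 11662 CPM just outside. Per cell, the 4 rule genes summed to a median of 6 UMIs labelled wt (3 to 20) and 6.5 labelled cko (3 to 18).

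The genes that stood highest in members over all other cells kept, outside the rule and ranked by the lower fold of the 2 libraries, were led by Ffar2, H2-DMb2, H2-Ob and Mgl2. These values describe cells chosen from the same counts and were not tested. Ffar2, a receptor for short-chain fatty acids, had 138 and 158 CPM labelled wt and cko, 25.2-fold and 29.8-fold the level of the other cells. H2-DMb2, a beta chain of the peptide editor H2-DM, had 561 and 604 CPM (20.1-fold and 22.0-fold). H2-Ob, the partner chain of H2-Oa, had 148 and 146 CPM (15.2-fold and 14.96-fold). The level of Mgl2 was 466 and 246 CPM (18.4-fold and 13.6-fold).

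Several genes among the 20 with the highest folds encode receptors better known from lymphocytes. Klrb1b, an inhibitory NK receptor, had 165 and 120 CPM (10.1-fold and 10.3-fold). Klrd1 (CD94) had 409 and 487 CPM, 3.88-fold and 4.15-fold the other cells, although T cells held 1081 and 1194 CPM. Cd7 had 139 and 214 CPM against 181 and 160 CPM in T cells, 0.62 to 1.32 CPM in C1q macrophages and 3.93 to 10.1 CPM in monocytes. With 27 and 40 members carrying a Cd7 UMI (39.1% and 48.8%; 23.2% and 30.5% thinned), the macrophage share was 0.491% and 0.804% (0.245% and 0.201% thinned) at median depths of 11096 and 10732 UMIs. The 9 T cell genes had 22 and 20 UMIs in members, with Cd3e, Cd3g and Cd8a at 0 in the library labelled wt, but the rule itself allowed at most 1 UMI of Cd3d, Cd3e and Cd3g per cell, so the counts of those 3 genes were limited by it.

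The same 20 genes also held Klra17, Dpp4 (CD26, a surface peptidase of dendritic cells), P2ry10, Plet1, Rtn1, Ccnd1 (cyclin D1), Cbfa2t3 (a corepressor), Clec10a, Pkp3, Olfm1, Bex6 and Avpi1. Plet1 was 20.7-fold the other cells in the library labelled wt and 8.43-fold in the library labelled cko, and was higher still in the XCR1 gate (391 and 637 CPM, against 176 and 68.3 CPM in members). At the other end, the genes with the lowest folds among those with at least 500 CPM elsewhere were led by Apoe and S100a8. Apoe, a lipid carrier made by macrophages, had 72.5 and 231 CPM, 0.0512-fold and 0.0768-fold the other cells. S100a8, a granulocyte alarmin, had 130 and 183 CPM (0.130-fold and 0.0896-fold). Sepp1, S100a9, Pla2g7, Ctsb, Fcgr3, Fabp5, Chil3 and Cebpb made up the rest, with folds of 0.0882 to 0.271.

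Members were set beside 3 other gates. The XCR1 gate (at least 2 UMIs of Xcr1 and Clec9a) held 18 and 15 cells, the monocyte gate (at least 3 of Ly6c2, rule sum under 3) 580 and 566, and the C1q macrophage gate (at least 10 of C1qa, C1qb and C1qc, rule sum under 3) 815 and 995. A gene was called when it was at least 1.5-fold apart with an interval that excluded equality in both libraries. Of all genes, 5.54% were called higher and 3.75% lower in members than in XCR1 cells, 6.01% and 6.09% against monocytes, and 5.12% and 5.77% against C1q macrophages. No cell was in more than 1 gate.

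**Figure D1:**
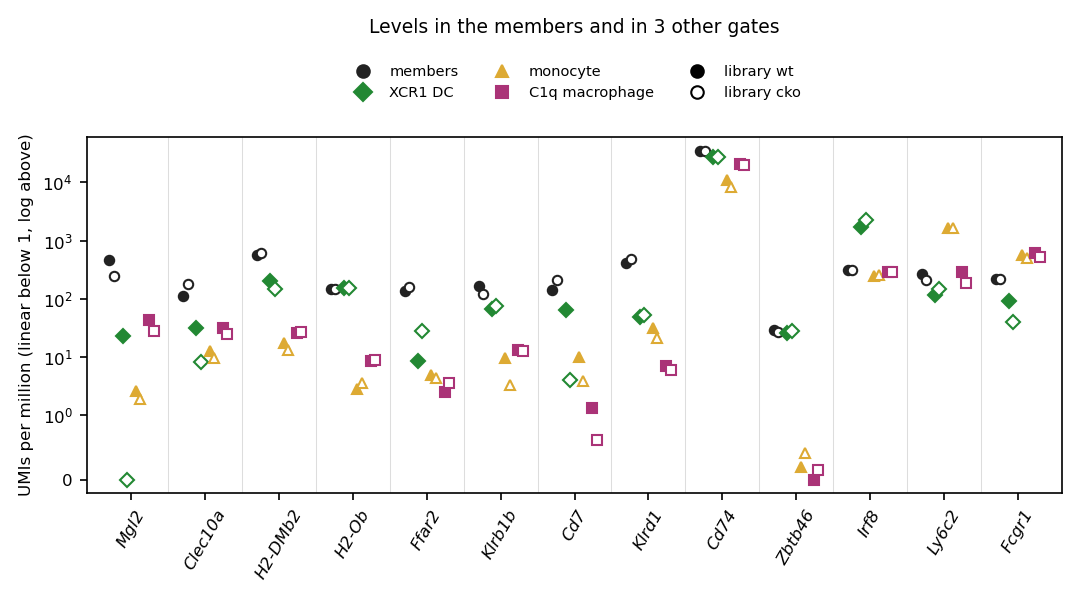
Levels of 13 genes in CPM (vertical axis, linear below 1 and logarithmic above) in the members, the XCR1 dendritic cells, the monocytes and the C1q macrophages, with filled symbols for the library labelled wt and open symbols for cko. Mgl2, Clec10a, H2-DMb2, Ffar2, Klrb1b, Cd7, Klrd1 and Cd74 were highest in members in both libraries, H2-Ob and Zbtb46 were near the XCR1 cells, and Irf8, Ly6c2 and Fcgr1 were higher in at least 1 other gate.

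Against monocytes and macrophages, members held the general dendritic cell genes. Of 18 such genes outside the rule with enough UMIs, 14 were higher and 0 lower in members than in monocytes, and of 19, 15 were higher and 0 lower than in C1q macrophages. Zbtb46, the transcription factor of conventional dendritic cells, had 28.7 and 27.0 CPM in members and 25.3 and 28.2 CPM in XCR1 cells, against 0.202 and 0.413 CPM in monocytes and 0 and 0.155 CPM in C1q macrophages. Dpp4, Kit (the stem cell factor receptor), Bcl11a, Itgax (CD11c), Cd24a and Traf1 were among those higher in both comparisons. Flt3, which chose members, had 84.8 and 149 CPM in members and more in XCR1 cells (234 and 314 CPM), with 2.22 and 2.69 CPM in monocytes.

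Against XCR1 cells the cDC2 list separated them. Of 13 cDC2 genes outside the rule, 7 were higher (Mgl2, Clec10a, Sirpa, Itgam, Klf4, Cd7 and Il1r2) and 0 lower in members, and all 11 cDC1 genes with enough UMIs were lower. Against monocytes and macrophages 9 genes of the list were higher, but Itgam (CD11b) was lower in members than in both (113 and 115 CPM, against 221 and 210 CPM in monocytes and 237 and 248 CPM in macrophages), and Sirpa was lower than in macrophages (380 and 362 CPM). Sirpa, an inhibitory receptor of cDC2 and macrophages, had 212 and 212 CPM in members against 25.3 and 28.2 CPM in XCR1 cells. Klf4, a transcription factor needed by part of the cDC2 branch, had 77.9 and 100 CPM against 14.1 and 32.3 CPM. Il1r2, the decoy receptor for interleukin-1, had 1023 and 1155 CPM in members, against 98.5 and 246 CPM in XCR1 cells, 396 and 484 CPM in monocytes and 193 and 218 CPM in macrophages. Irf8 was lower in members (306 and 318 CPM, against 1694 and 2246 CPM), as was Batf3 (36.9 and 58.0 CPM, against 231 and 206 CPM). Irf4, the textbook cDC2 factor, had only 4 and 7 UMIs, Esam and Dtx1 had none and Ccl17 had 4 in each library, in 1 and 2 cells.

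Monocyte and macrophage genes were present at lower levels. All 12 macrophage genes with enough UMIs were lower in members than in C1q macrophages, 8 of 12 were lower than in monocytes, and 13 of 14 classical monocyte genes were lower than in monocytes (Ly6c2 itself defined that gate). Ly6c2 still had 268 and 210 CPM in members, against 1648 and 1661 CPM in monocytes and 115 and 149 CPM in XCR1 cells. The Fc receptor Fcgr1 (CD64) had 220 and 215 CPM, against 573 and 509 CPM in monocytes and 615 and 520 CPM in macrophages. Csf1r, the receptor for the macrophage growth factor CSF1, had 319 and 278 CPM against 478 and 424 CPM.

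Of 12 MHC class II genes outside the rule, 4 were higher and 0 lower in members than in XCR1 cells. Against monocytes 9 of 12 genes of the list were higher in members, with Lgmn (legumain, a lysosomal protease) lower, and the same counts held against macrophages for 13 genes. Cd74, the invariant chain, had 34218 and 34208 CPM in members, 27505 and 27128 CPM in XCR1 cells, 10987 and 8277 CPM in monocytes and 20811 and 20276 CPM in macrophages. The 4 genes higher than in XCR1 cells were H2-DMb2 (561 and 604 CPM against 200 and 149 CPM) and Ctss, Ifi30 and Lgmn, 3 enzymes of the endosome. H2-Ob had 148 and 146 CPM in members and 152 and 153 CPM in XCR1 cells, so that gene did not set these gates apart. Kynu and Haao, which act after KMO in the kynurenine pathway, were higher in members than in monocytes and macrophages (Kynu 27.3 and 36.1 CPM, against 7.68 and 7.02 CPM in monocytes).

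Ligands and signals differed gene by gene. Icosl, the ligand of the T cell costimulator ICOS, was higher in members than in all 3 gates (52.0 and 65.7 CPM, against 13.1 to 19.7 CPM). Pdcd1lg2 (PD-L2) and Cd83 were higher than in monocytes and macrophages, whereas Cd86 (179 and 178 CPM) and Cd80 were called in neither direction against any gate. Il1b had 1068 and 740 CPM, and Il12a, Il12b, Il23a, Il10, Il6 and Ifnb1 had no UMI in any member, which allows up to 3 UMIs per library at this depth. Of 15 chemokines with enough UMIs, 7 were lower than in monocytes, among them Ccl2, Ccl7 and Cxcl2, and Ccl22 and Cxcl16 were higher. Cell cycle genes were lower than in XCR1 cells for 9 of 20, and 5 and 3 members (7.25% and 3.66%) had at least 10 UMIs of 17 cycle genes, against 8 of 18 and 4 of 15 XCR1 cells, whose median depth was greater (18241 and 15764 UMIs, with no correction for depth).

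Members were next split by Ly6c2 and by Mgl2. In the library labelled wt, 31 members had a Ly6c2 UMI and 38 had none, and in the library labelled cko 24 and 58. Mgl2 had 90.8 CPM in wt members with a Ly6c2 UMI and 776 CPM in those without, and 185 and 277 CPM in cko members. Plac8, a gene of Ly6C-positive monocytes, ran with Ly6c2 (5180 CPM with and 1976 CPM without labelled wt, 4248 and 2009 CPM labelled cko), as did Chil3 (345 and 7.5 CPM, 991 and 13.7 CPM). H2-DMb2 ran against it (357 and 729 CPM, 462 and 678 CPM), as did H2-Oa (287 and 482 CPM, 265 and 482 CPM). These splits describe the members and rest on 24 to 58 cells each.

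**Figure D2:**
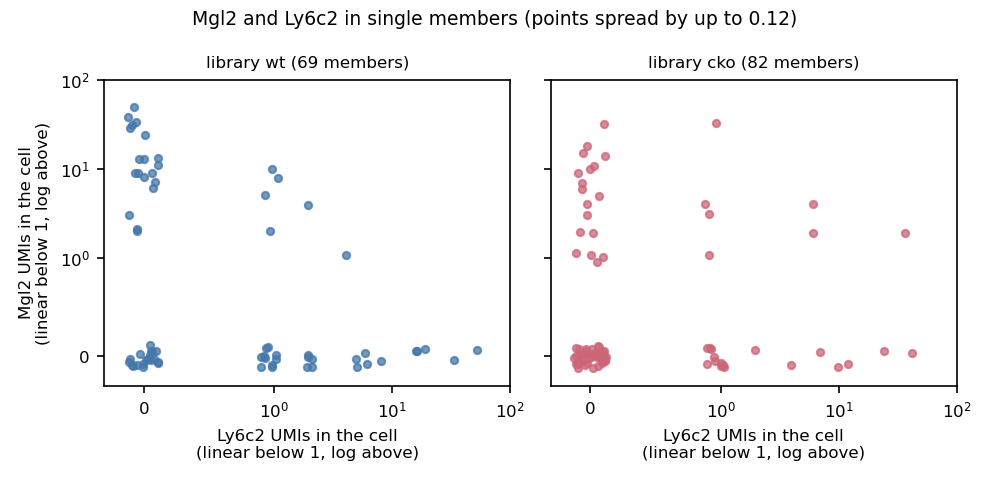
Each point is 1 member, with its Ly6c2 UMIs on the horizontal axis and its Mgl2 UMIs on the vertical axis (both linear below 1 and logarithmic above), library labelled wt on the left and cko on the right. Points are spread by up to 0.12 UMIs to keep them apart. The member with the most Mgl2 UMIs had 0 Ly6c2 UMIs in the library labelled wt and 1 in the library labelled cko, and 44 and 57 members had no Mgl2 UMI.

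Mgl2 was held by few cells. The 5 members labelled wt and the 4 labelled cko with the most Mgl2 held at least as many of its UMIs as all the others together, and the highest single cells had 50 and 33 UMIs. Mgl2 and Clec10a, neighbours in function as the 2 galactose-type lectins of mouse, were both seen in 12 members of each library, Mgl2 alone in 13 of each, Clec10a alone in 7 and 14, and neither in 37 and 43. Members with a Mgl2 UMI had 237 and 381 CPM of Clec10a, against 35.3 and 88.5 CPM in those without. They also had lower levels of Flt3 (35.9 and 103 CPM, against 115 and 169 CPM) and Cd7 (35.9 and 133 CPM, against 203 and 249 CPM), and more Klf4 (133 and 154 CPM, against 44.1 and 77.4 CPM). Flt3 is a gene of the rule, which limits the mixes of rule genes a member can have, so its values here are a description. The 14 members with a Cd209a UMI had 1391 and 1006 CPM of Mgl2 and 403 and 530 CPM of Clec10a, higher than the 365 and 166 CPM and 80.4 and 139 CPM of the other members.

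Members were also split by Flt3, a gene of the rule, so that cells without a Flt3 UMI could enter only through Kmo, H2-Oa or Cd209a, and the values are a description. Those with a Flt3 UMI had 248 and 265 CPM of Cd7, against 34.96 and 122 CPM in those without. They had less Fcgr3 (58.4 and 145 CPM, against 323 and 323 CPM) and more Plet1, an epithelial and dendritic cell surface protein (253 and 106 CPM, against 102 and 0 CPM). Plet1 was seen in 12 and 6 members in all. Top2a, a cycle gene, had 52.9 and 68.3 CPM with Flt3 and 5.38 and 0 CPM without. Only 5 and 3 members had at least 10 UMIs of the 17 cycle genes, so few cells carried such RNA. Cd74 and H2-Aa were close in both classes (33301 and 33018 CPM of Cd74 with Flt3, 35104 and 36334 CPM without).

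A few members carried RNA of other lineages. One wt member held all 30 UMIs of Cd79a and all 25 of Ms4a1 in that library, and both genes were at 0 in the library labelled cko. One cko member had 52 of 85 NK list UMIs and another had 81 UMIs of the plasmacytoid list, which also holds genes of other cells. Mast cell genes had 3 and 0 UMIs, and tumor and stromal genes 12 and 24 UMIs with keratin and collagen genes at 0. Summed macrophage genes had 1521 and 1663 CPM, a median of 14 and 11.5 UMIs per cell, with Mertk at 0 in both libraries. Their part in the results was not tested, and the counts without the B cell gene-bearing member are given with the other alternatives.

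The libraries labelled wt and cko were then compared within the members. Of 6053 genes with at least 20 UMIs, 217 (3.58%) were called higher in the library labelled cko and 135 (2.23%) were called lower, at 1.5-fold or more with an interval that excluded 0 on the log2 scale. The median log2 ratio over all these genes was 0.04. Among genes with at least 50 UMIs, and with at most 20% of the UMIs of the higher library in 1 cell, Lyz2, Tgfb1 and Mgl2 had the lowest upper bounds of the log2 ratio. Gene levels below are CPM in the order wt, cko, and log2 ratios are cko over wt.

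Lyz2, whose promoter drives Cre, had 3697 UMIs in wt members and 1180 in cko members (5055 and 1520 CPM), a log2 ratio of −1.73 (−1.83 to −1.64). The ratio was −1.17 in C1q macrophages (16415 and 7319 CPM), −0.94 in monocytes (25321 and 13217 CPM) and −0.88 in T cells (1886 and 1025 CPM), and 0.11 in XCR1 cells (1272 and 1375 CPM). The XCR1 sum held 1 cko cell at 81.3 Lyz2 UMIs per 10000 UMIs, and the medians per XCR1 cell were 8.18 and 3.50 per 10000 (quartiles 4.93 and 15.4 labelled wt, 2.25 and 7.15 labelled cko). CCR7 dendritic cells (3 or more UMIs of Ccr7 and Fscn1) likewise had a summed ratio of 0.24 and medians per cell of 4.02 and 2.56 per 10000. The ratio in members was lower than that in macrophages by a log2 difference of −0.57 (−0.66 to −0.47, counting error only). T cells are not known to express Lyz2, and their level, taken as a measure of free RNA, likewise stood lower in the cko library. Its part in the difference among members was not tested.

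Per cell, Lyz2 was spread widely. Wt members had a median of 11.8 Lyz2 UMIs per 10000 UMIs (quartiles 5.07 and 67.4, highest 396), and cko members a median of 2.68 (1.42 and 6.08, highest 182). T cells had medians of 4.42 and 2.29, monocytes of 240 and 121. The 95th percentile of the T cells, 82.2 and 40.7 per 10000, was exceeded by 15 wt members (21.7%) and 8 cko members (9.76%). The 7 wt and 3 cko members richest in Lyz2 held at least as many of its UMIs as all other members together. Lyz2 was seen in 98.6% and 90.2% of members (89.9% and 59.8% thinned), against 94.1% and 86.5% of T cells (73.7% and 56.8% thinned).

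Lyz2 moved with Ly6c2 among members. Members with a Ly6c2 UMI had 8623 and 3363 CPM, and those without had 2113 and 568 CPM. By Flt3, members without a UMI had 7615 and 1522 CPM and members with one had 2407 and 1518 CPM, so the levels of the libraries lay farther apart in members without Flt3. A UMI of Ly6c2 was carried by 44.9% of wt members and 29.3% of cko members, with intervals of 32.9 to 57.4 and 19.7 to 40.4 that overlap. The part of this makeup in the Lyz2 difference was not tested beyond the value without these cells, a log2 ratio of −1.90.

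**Figure D3:**
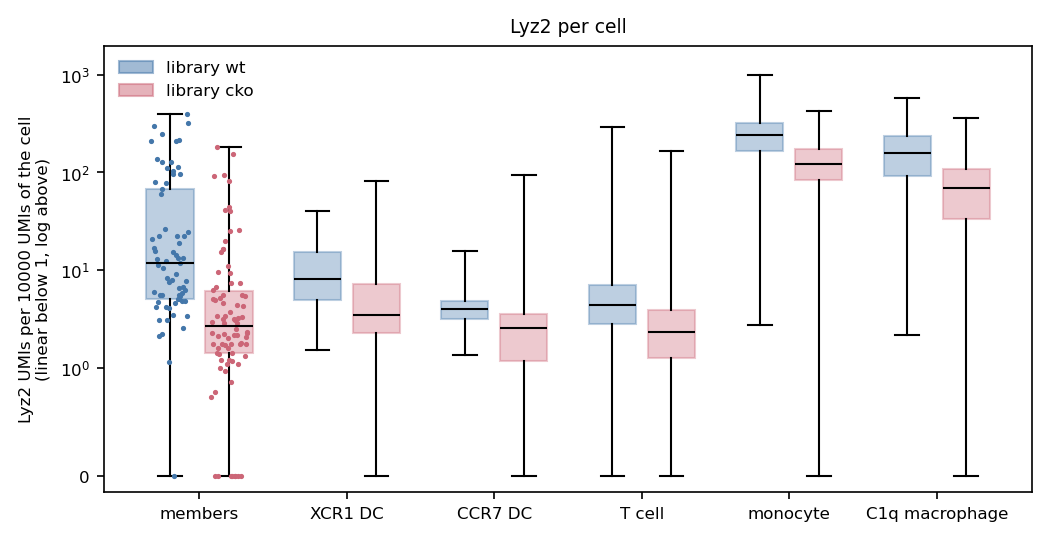
Lyz2 UMIs per 10000 UMIs of each cell (vertical axis, linear below 1 and logarithmic above) in the members and in 5 other gates, libraries labelled wt and cko side by side, with boxes from the first to the third quartile, a line at the median, whiskers from the lowest to the highest cell and a point for each member. The median of members was 11.8 labelled wt, above the 4.42 of T cells, and 2.68 labelled cko, close to their 2.29, while monocytes and C1q macrophages lay far above.

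Tgfb1, which encodes the cytokine TGF-β1, had 189 and 76 UMIs (258 and 97.9 CPM, log2 ratio −1.40, −1.80 to −1.01). In the 5 other gates Tgfb1 was lower too, with log2 ratios of −1.09 in XCR1 cells, −2.11 in CCR7 dendritic cells, −1.57 in monocytes, −1.48 in C1q macrophages and −1.51 in T cells. The differences between members and these gates had intervals that included 0. Tgfb1 UMIs were seen in 57 of 69 wt and 48 of 82 cko members, and the highest cell held 5.29% and 5.26% of them. Il1rn, the interleukin-1 receptor antagonist, was also lower (37 and 8 UMIs, log2 ratio −2.30, −3.61 to −1.17), and Il1b, with 781 and 575 UMIs, was not past 1.5-fold (−0.53).

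Of the cDC2 genes, 14 were tested, Clec10a and Cd7 were higher in the library labelled cko, Mgl2 was lower and the median was 0.01. Mgl2 had 341 and 191 UMIs in 25 members each (log2 ratio −0.92, −1.19 to −0.66), and Clec10a 82 and 137 UMIs in 19 and 26 members (0.65, 0.25 to 1.07). Summed over all members, these related lectins thus differed in opposite directions, and 1 cko member held 28 of the Clec10a UMIs. Mgl2 had 225 and 235 CPM in members with a Flt3 UMI, and 699 and 266 CPM in those without. Cd7 had 102 and 166 UMIs (0.62, 0.25 to 0.99). Il1r2 (748 and 897 UMIs, 0.18), Sirpa (155 and 165, 0.00) and Itgam (83 and 89, 0.01) were close to level. Mgl2 was at −0.59 with a rule sum of at least 2 UMIs and at −1.48 without members with a Ly6c2 UMI. In members with a Cd209a or Mgl2 UMI it was at −0.58 (−0.84 to −0.32), under 1.5-fold and so not called, in cells chosen by Mgl2 itself.

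Of 21 general dendritic cell genes 5 were called higher and 1 lower, with a median of 0.26. Flt3, 1 of the 5, was used to choose the members, and the list also holds the rule genes Kmo and H2-Oa, so its count and median are a description. Dpp4 had 59 and 104 UMIs in 34 and 56 members (0.73, 0.26 to 1.22). Hmgn3, a chromatin protein, had 25 and 48 UMIs (0.85, and −0.00586 without members with a Ly6c2 UMI), Pstpip1, an actin regulator, 49 and 79 (0.60), and Relb, an NF-κB subunit of dendritic cells, 34 and 57 (0.66, 0.02 to 1.32). Flt3 had 62 and 116 UMIs (0.82). Cd24a was lower (103 and 57 UMIs, −0.94), with 27.2% of its wt UMIs in 1 cell and a ratio of 0.40 in members with a Cd209a or Mgl2 UMI. Of 18 lineage transcription factors, Relb and Bhlhe40 (96 and 155 UMIs, 0.60, 0.23 to 0.99) were higher and 0 lower, with Irf8 at 0.05 (224 and 247 UMIs) and Zbtb46 at −0.09 (21 and 21).

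Antigen presentation genes had few calls. Of 13 class II genes 0 were called in either direction, with a median of 0.08, and Cd74 (25024 and 26563 UMIs) had a log2 ratio between −0.03 and 0.02. H2-Ab1, the class II beta chain of this strain, was at 0.08 (0.05 to 0.12) and H2-DMb1 at 0.28 (0.15 to 0.42). H2-DMb2 and H2-Ob, whose promoters are shown above, were at 0.11 (−0.09 to 0.30) and −0.02 (−0.41 to 0.37). Of 15 class I genes, H2-Q7 was higher (89 and 152 UMIs, 0.69) and Nlrc5, the class I transactivator, lower (17 and 5 UMIs, −1.85, −3.65 to −0.35), with a median of 0.01. Among 13 costimulatory and coinhibitory genes only Cd40 was called (69 and 45 UMIs, −0.70, −1.28 to −0.14), with 24.6% of its wt UMIs in 1 cell, and Cd86 (131 and 138 UMIs, −0.01), Cd80 (23 and 24, −0.03), Cd274 (34 and 35, −0.04) and Pdcd1lg2 (22 and 23, −0.02) were near 0.

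Chemokines differed both ways and rested on few cells. Cxcl10, an interferon-induced ligand of CXCR3, had 280 and 29 UMIs in 12 and 5 members (log2 ratio −3.36, −3.96 to −2.80), and Cxcl9, of the same family, 159 and 98 (−0.78). Ccl4 had 73 and 23 UMIs, and 69.9% of the wt UMIs lay in 1 cell. Ccl5 was higher in the library labelled cko (31 and 116 UMIs, 1.82, 1.23 to 2.44), with 46.6% of its cko UMIs in 1 cell and −0.0262 with a rule sum of at least 2 UMIs. Ccl3 (18 and 45 UMIs, but −0.15 in members with a Cd209a or Mgl2 UMI) and Ccl22, a ligand of CCR4 (9 and 23, 1.27, with 56.5% in 1 cell), were higher too. The mature dendritic cell list had 4 of 9 genes higher, Ccl22, Ccl5, Relb and Il4i1, the last with 1 and 38 UMIs in 1 and 5 members, and 1 lower, Cd40.

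Of 22 type I interferon response genes 8 were lower in the library labelled cko and 1 higher (Ifi44), with a median of −0.48 against 0.04 over all genes. Ifit3, an antiviral protein induced by interferon, had 84 and 25 UMIs (−1.84, −2.54 to −1.18), Rsad2 (viperin) 59 and 8 (−2.97, −4.25 to −1.90), Usp18, a brake on the receptor, 99 and 54 (−0.96) and Isg20 46 and 27 (−0.86). Ifit1, Ifit2, Ifit3b and Oasl1 made up the 8. With fewer than 3 C1q UMIs Usp18 was at 0.58 and Rsad2 at 0.26, while Ifit3 was at −0.67. Isg20 was at 0.26 in members with a Cd209a or Mgl2 UMI. Isg15 (264 and 189 UMIs, −0.57) and Irf7 (228 and 179, −0.44) did not pass 1.5-fold, and Ifi27l2a (630 and 712, 0.09) and Bst2 (178 and 222, 0.23) were not lower. Other gates differed among themselves. Rsad2 had a log2 ratio of −4.07 in XCR1 cells (24 and 1 UMIs), 2.98 in CCR7 dendritic cells (1 and 14 UMIs), 0.03 in monocytes and −0.02 in C1q macrophages. Ifit3 was at −3.48 in XCR1 cells (32 and 2 UMIs), 1.01 in CCR7 dendritic cells (12 and 43 UMIs), −0.13 in monocytes and 0.04 in macrophages. Cxcl10 was at −3.36 in XCR1 cells (44 and 3 UMIs), 2.26 in CCR7 dendritic cells (4 and 34 UMIs), 0.36 in monocytes and −0.44 in macrophages.

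Much of these differences lay in few cells. With Cxcl10 added the list had 2705 and 2189 UMIs, and 3 wt members held 542, 364 and 170 of them (39.8%), whereas the top 3 cko members held 169, 131 and 99 (18.2%). Medians per member were 13 and 15 UMIs. One wt cell held 51 of the 59 Rsad2 UMIs, and the same 3 wt cells held 87, 42 and 128 of the 280 Cxcl10 UMIs. Without the top 3 members of each library, an alternative chosen after the data were seen, 0 of 18 genes were lower, 2 were higher and the median was −0.06. Ifit3 without those members was at −0.88 (−1.87 to 0.07) and Ifit2 at −1.03 (−2.48 to 0.30), still below 0 but not called. These cells were picked by the same UMIs that were then compared, so the values describe how the UMIs were spread and give no estimate of the difference among the other members. Members with 3 to 9 C1q UMIs had 6341 and 3417 CPM of the list, against 2441 to 2790 CPM in members with fewer, and below 3 C1q UMIs the median was 0.19.

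Promoter stretches of Rsad2, Ifit1 and Ifit3 are shown because they led the list. Capitals mark the ISRE core GAAANNGAAA on either strand, the element bound by the interferon-activated factor ISGF3 (here read as its reverse complement), and the stretches are 5′ to 3′ on the gene's strand from RefSeq (GRCm38.p6), at chr12:26456533-26456632 (minus strand), chr19:34640744-34640843 (plus strand) and chr19:34583347-34583446 (plus strand).
Rsad2: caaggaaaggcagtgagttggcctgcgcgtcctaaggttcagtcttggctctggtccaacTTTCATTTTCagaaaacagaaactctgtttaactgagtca
Ifit1: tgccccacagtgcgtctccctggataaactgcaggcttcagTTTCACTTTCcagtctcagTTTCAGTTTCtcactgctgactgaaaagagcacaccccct
Ifit3: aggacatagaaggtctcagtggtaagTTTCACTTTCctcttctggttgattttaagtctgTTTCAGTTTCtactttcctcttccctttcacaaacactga
The ISRE core was found in 11 of the 17 list genes with a promoter entry, against 3.99% of all genes in the table (3.44% of promoters).

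**Figure D4:**
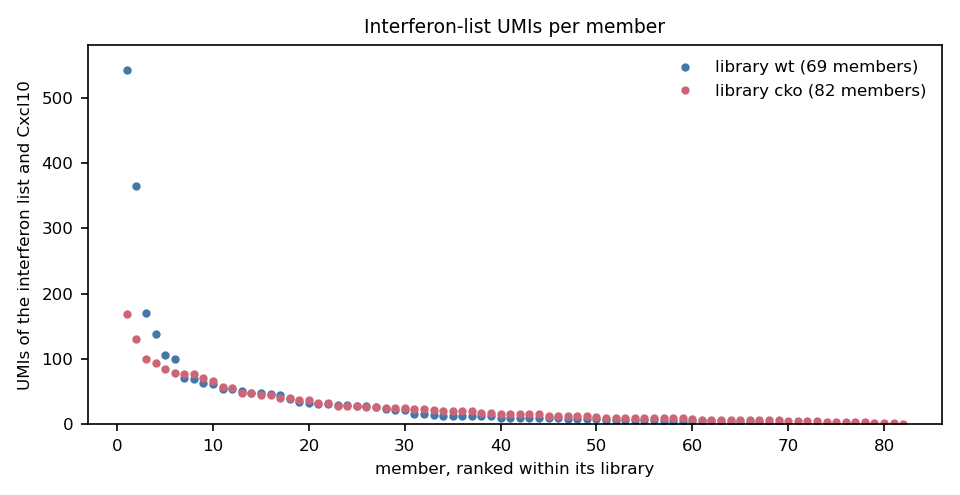
UMIs of the type I interferon list and Cxcl10 in each member (vertical axis), ranked from highest to lowest within its library (horizontal axis), blue for the library labelled wt and red for cko. The 2 highest wt members, at 542 and 364 UMIs, stood far above the highest cko member (169), while the medians were 13 and 15.

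The genes with the highest lower bounds of the log2 ratio (at least 50 UMIs, top cell at most 20%) included 3 transcription factors and a stress-response gene. Klf2, a factor of quiescence and vascular flow, had 122 and 264 UMIs in 35 and 56 members (1.03, 0.71 to 1.35), and the ratio was 1.07 in XCR1 cells (difference −0.04, −0.69 to 0.61), −0.11 in CCR7 dendritic cells, 0.50 in monocytes and 0.62 in macrophages. Jun, an AP-1 subunit, had 237 and 449 UMIs in 53 and 74 members (0.84, 0.61 to 1.07), against 1.33 in XCR1 cells, 1.08 in CCR7 dendritic cells, 0.18 in monocytes and 0.47 in macrophages. Myc had 22 and 53 UMIs (1.18) and Ddit4, an inhibitor of mTORC1, 61 and 136 (1.07, 0.62 to 1.53). Egr1 of the immediate-early list was higher too (15 and 37 UMIs, 1.22) and Atf3 lower (30 and 14, −1.19), with Fos at 0.03 and Junb at 0.04, and that list had a median of 0.05.

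The other genes named by that rule as higher were Skint3 (21 and 75 UMIs, 1.75, 1.04 to 2.52), Slc46a3, a lysosomal transporter (16 and 52), Gm14548, Dcaf11, the sialic acid receptor Siglece (23 and 57, 1.22) and Slamf9 (28 and 66, 1.15). In monocytes Skint3 had a log2 ratio of 0.14 and in macrophages 0.17, a difference from members of 1.61 (0.84 to 2.38) and 1.58 (0.84 to 2.31). Lower, after Lyz2, Tgfb1 and Mgl2, were Fam26f (80 and 40, −1.09), Klra2 (60 and 28, −1.19, but 0.0381 in members with a Cd209a or Mgl2 UMI and 0.65 without members with a Ly6c2 UMI), the interferon-inducible Ifi205 (236 and 147, −0.77), the selenoprotein Sepw1 (235 and 147, −0.76), Pgap2, the ubiquitin ligase Ube3a (55 and 27, −1.11) and Samd9l (42 and 19, −1.23).

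Monocyte and macrophage genes differed in both directions. Of 14 classical monocyte genes, Chil3 (117 and 269 UMIs, 1.11, 0.80 to 1.44, in 8 and 13 members, and 1.01 in monocytes and 0.96 in T cells), Fn1 (7 and 21) and Cd14 (26 and 48) were called higher and Lyz2 alone lower, with 5 of the 14 ratios below 0 and a median of 0.26. Of 13 macrophage genes, Apoe (53 and 179 UMIs, 1.67, 1.22 to 2.14) and Cd14 were called higher and 0 lower, with 7 of the 13 ratios below 0 and a median of −0.03. Apoe had 54.7% of its wt UMIs in 1 cell, and in members with a Cd209a or Mgl2 UMI its ratio was −0.41. The Apoe ratio was 1.58 in T cells (138 and 544 UMIs), 0.96 in monocytes and 1.00 in C1q macrophages, and the part of free RNA in the difference among members was not tested. Of 16 growth factor and cytokine receptors, Flt3, a rule gene given as a description, and Il4ra, a subunit of the interleukin-4 receptor (71 and 126 UMIs in 41 and 56 members, 0.74, 0.31 to 1.18), were higher and 0 lower. Cell cycle genes had 0 higher and 2 lower of 20 (Stmn1 and Tyms), both held by few cells.

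**Figure D5:**
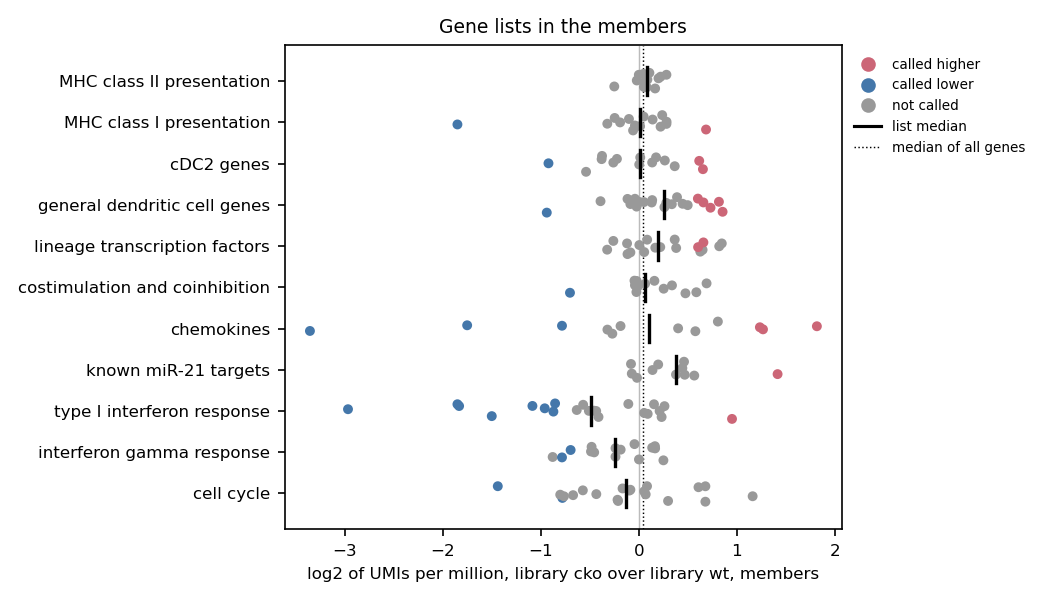
Each point is 1 gene of a list with at least 20 UMIs in the members, at its log2 ratio of CPM, library labelled cko over wt (horizontal axis), red where called higher, blue where called lower and grey otherwise, with a bar at the list median and a dotted line at the median of all genes (0.04). Class II genes lay close to 0, the type I interferon list had the lowest median of the 11 lists drawn (−0.48; lower medians, not drawn, were those of 5 cytokine, 3 B cell and 2 LysMCre and miR-21 locus genes), and the known miR-21 targets had a median of 0.38.

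Because miR-21 was the gene under study, its known targets were read as well. Mature miR-21a-5p (RefSeq, GRCm38.p6, chr11:86584120-86584141, minus strand) is printed with its seed in capitals, and below it, from the 3′ UTRs of 4 target genes with enough UMIs (GENCODE M21, GRCm38), examples of seed-matched sites, with the match and a following A where present in capitals, at chr19:53929418-53929439 (Pdcd4, plus strand), chr11:21148541-21148562 (Peli1, plus strand), chr12:8497718-8497739 (Rhob, minus strand) and chr11:100887211-100887232 (Stat3, minus strand).
miR-21a-5p: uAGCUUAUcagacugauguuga
Pdcd4: gtgtgggtgttctgATAAGCTA
Peli1: tgcattgtaagtttATAAGCTA
Rhob: tacataagagttctATAAGCTg
Stat3: tctttagttatacaATAAGCTg
Of 11 targets tested, Rhob was higher in the library labelled cko (6 and 17 UMIs, 1.42, 0.01 to 3.05) and 0 were lower, with a median of 0.38 against 0.04 over all genes. Pdcd4, a translation inhibitor and classic target, was at 0.57 (−0.47 to 1.65), Peli1, a ubiquitin ligase, at 0.47 (−0.21 to 1.16) and Stat3 at 0.38 (−0.11 to 0.87). Tgfbi was at −0.07, and Btg2 (−0.08) and Tpm1 (0.46) had no seed match in the UTR read. Intervals of 10 of the 11 included 0, so at this depth no difference was detectable in them.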

How the data were processed

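Single-cell RNA of sorted tumor leukocytes was measured in 2 libraries, each a pool of 3 mice (10x Genomics 3′ chemistry). The authors deposited whole-number UMI counts, 1 matrix per library, already limited to barcodes taken as cells. Submitters' processing notes name Cell Ranger, Seurat and mm10, with versions and roles not given in the sources used here. Raw counts were used as deposited for 27998 genes. Cells with at most 10% mitochondrial UMIs were kept, and gates were set on raw UMIs.

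UMIs were summed over the cells of a gate in each library and given as CPM. Log2 ratios, cko over wt, have exact 95% conditional binomial intervals, and shares have exact Clopper-Pearson intervals. UMIs of 1 cell need not be independent, so intervals cover counting error only. Genes needed at least 20 UMIs over both libraries, and a call needed 1.5-fold and an interval that excluded 0. A gene at 0 in 1 library was given no ratio. Depth per member was a median of 9884 and 8904.5 UMIs. The calling step was tested on simulated sums of independent counts without single cells. UMIs held by few cells were not simulated, so that test gives no rate of false calls for the members.

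Genes of fixed lists could be named, with the 10 highest lower bounds and the 10 lowest upper bounds (at least 50 UMIs, top cell at most 20% of UMIs in the higher library), the 20 highest folds over other cells (at least 100 UMIs) and the 10 lowest (at least 500 CPM elsewhere). Members, gates, lists and rules were chosen with earlier results of these data known. Scrublet (scanpy 1.11.5) marked 7 of 5149 cells (0.136%), too few to have worked, so doublets were kept and the 106 top-scoring cells, 1 of them a member, were removed as an alternative. Other tools were Python 3.11.15, numpy 2.4.6, scipy 1.17.1, pandas 2.3.3 and matplotlib 3.10.9. Promoters and miR-21a-5p came from RefSeq tables and target sites from GENCODE annotation. Protein sequences were not analysed here. Some genes of the lists are not reported here by name.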

Additional observations from a re-analysis of the deposited data

Results flagged for a closer look

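Some genes had opposite log2 ratios (cko over wt) in members and in another gate, each past 1.5-fold with an interval that excluded 0. With 1 library per group the difference was not tested. Genes called the same way, higher and lower, numbered 6 and 15 with XCR1 cells, 16 and 11 with monocytes and 25 and 6 with C1q macrophages. Genes called opposite ways, higher and lower in members, numbered 6 and 2, 3 and 5, and 2 and 1 in the same order. Only those among the genes followed by name are listed here. Cd7 was at 0.62 in members (102 and 166 UMIs) and at −4.01 in XCR1 cells (23 and 1 UMIs, in 3 of 18 and 1 of 15 cells) and −1.36 in monocytes (50 and 19 UMIs). Plet1 was at −1.37 in members (129 and 53 UMIs) and at 0.70 in XCR1 cells (139 and 158 UMIs). Ccl5 was at 1.82 in members (31 and 116 UMIs) and −1.09 in monocytes (616 and 284 UMIs). Il4i1 was at 5.16 in members, on 1 and 38 UMIs, and −1.29 in C1q macrophages (24 and 12 UMIs). Stmn1 was at −0.78 in members (89 and 55 UMIs) and 0.61 in C1q macrophages (1572 and 2935 UMIs), and 55.1% of its wt UMIs in members lay in 1 cell.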

How the results depend on the processing

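No paired analysis was possible because each group is 1 pooled library. The count of genes higher in the library labelled cko, 217, was 117 in members with a UMI of Cd209a or Mgl2, 98 after thinning members to 3000 UMIs, 134 with a floor of 50 UMIs and 111 at 2-fold. The count of lower genes, 135, was 70 after thinning, 73 with the floor of 50 UMIs and 78 at 2-fold, and the floor, the fold and thinning by construction leave fewer genes or UMIs. Lyz2, at −1.73, was −1.18 with a rule sum of at least 2 UMIs, −1.98 with fewer than 3 C1q UMIs, −1.34 in members with a UMI of Cd209a or Mgl2, −1.90 without members with a Ly6c2 UMI, −2.03 as a mean over cells, −1.98 without the richest member of each library and −2.16 after thinning. The median of the type I interferon list, −0.48, was 0.19 with fewer than 3 C1q UMIs, −0.06 without the 3 members of each library with the most interferon UMIs, −0.10 without members with a Ly6c2 UMI and −0.18 with a rule sum of at least 2 UMIs. The last 3 are among 95 alternatives that moved these results by less than 1.5 times for counts and by less than the counting interval for other values (for a list, the median width to either side of its genes' intervals).

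Single genes turned sign as follows. In members with a UMI of Cd209a or Mgl2 (27 and 26 cells) Klra2 was at 0.0381, Cd24a at 0.40, Ccl3 at −0.15, Apoe at −0.41 and Isg20 at 0.26. Without members with a Ly6c2 UMI Klra2 was at 0.65, Isg20 at 0.38 and Hmgn3 at −0.00586. With a rule sum of at least 2 UMIs Ccl5 was at −0.0262 and Pglyrp1 at −0.22. With fewer than 3 C1q UMIs Ccl4 was at 0.0780, Rsad2 at 0.26, Ifit1 at 0.26, Oasl1 at 0.19 and Usp18 at 0.58. Without the 3 members of each library with the most interferon UMIs Ccl4 was at 0.00791, Rsad2 at 0.10, Ifit1 at 0.82, Oasl1 at 0.20 and Usp18 at 0.40. After thinning Oasl1 was at 0.0140 and Tyms at 0.34. The cause was not tested. Of 65 called genes followed, 40 were no longer called after thinning, 38 in members with a Cd209a or Mgl2 UMI, 28 without members with a Ly6c2 UMI and 1 without the member with B cell UMIs. Leaving out cells by Ly6c2, B cell or interferon UMIs was chosen after the data were seen. Scaling by the median ratio shifted all genes by 0.04 on the log2 scale.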

Other observations

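Other gene groups of the members had few or no differences between the libraries. Of 6 Fc receptor genes and 5 chemokine receptor genes tested, 0 were called in either direction. Of 14 hypoxia and glycolysis genes Bnip3 alone was higher in the library labelled cko (25 and 45 UMIs, log2 ratio 0.76, 0.03 to 1.53), and the list had a median of −0.09. Against monocytes, 9 of 17 genes of that list were lower in members in both libraries, among them Slc2a1, the glucose transporter, and Pkm, a pyruvate kinase.

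Interferon gamma response genes had 0 of 15 higher and 2 lower (Iigp1 and Cxcl9). Kynurenine genes had 3 tested and 0 called, with Ido1, the enzyme that starts the pathway, at 0 and 2 UMIs. Among the C-type lectins, Clec4e (8 and 23 UMIs, 1.44) was higher and Cd302 (62 and 42, −0.65) lower, while Clec4a2 was at −0.01 and Clec4a3 at 0.19. Of 7 Toll-like receptors and adaptors, Cd14 alone was called.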
